A study of Mus musculus with 8 samples.

Results

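The 7 genes described here act in antiviral defence and were followed through total RNA libraries of RAW264.7, a mouse line with macrophage features. They are the 4 interferon-induced transmembrane genes Ifitm1, Ifitm2, Ifitm3 and Ifitm6, the tetherin gene Bst2, the viperin gene Rsad2 and its chromosomal neighbour Cmpk2. They were chosen by symbol, and all 7 were found in GENCODE release M21 among the 55450 gene rows of the deposited table. Of the 2 lines, shDis3l2 carries an shRNA directed at Dis3l2, an exoribonuclease that degrades RNAs with a uridine tail, and shNS carries a control labelled as non-silencing. Both were cultured over 4 days, either in 1 µg/mL doxycycline or in none. With doxycycline there were 3 libraries of shNS and 3 of shDis3l2, and without it 1 library of each. Every group shares the RAW264.7 background and carries an shRNA. Whether each line is a clone or a pool, and whether replicates were separate cultures, is not given in the sources used here, so p-values measure only the spread between these libraries, which may be technical.

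The products of these genes act at different steps of a virus's life. Ifitm proteins sit in the plasma membrane and endosomes and hinder the fusion of viral with cellular membranes, and tetherin holds budding particles on the surface of the infected cell. Viperin, on the endoplasmic reticulum and lipid droplets, is a radical SAM enzyme that turns CTP into a chain-terminating analogue, and Cmpk2 is a mitochondrial nucleotide kinase that acts on UMP and CMP. Interferon induces many antiviral genes through the transcription factor complex ISGF3, which binds interferon-stimulated response elements in promoters.

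Upstream sequence is shown for 3 genes with a match to the core of that response element before their start, and for Cmpk2, which has none, because it is the neighbour of Rsad2. The core searched was GAAA, any 2 bases and GAAA again, on either strand (TTTC, any 2 bases and TTTC on the other). The windows came from RefSeq (build GRCm38.p6), each running from 250 bases before to 50 bases after the annotated start, 300 bases in all. Matches may overlap each other. The 120 bases from -150 to -31 follow, 5′ to 3′ on the gene's strand, with matches in capitals.
Rsad2 (chr12:26456483-26456602, minus strand): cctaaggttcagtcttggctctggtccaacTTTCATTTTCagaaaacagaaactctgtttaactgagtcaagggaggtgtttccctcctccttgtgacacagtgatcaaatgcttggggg
Cmpk2 (chr12:26469065-26469184, plus strand): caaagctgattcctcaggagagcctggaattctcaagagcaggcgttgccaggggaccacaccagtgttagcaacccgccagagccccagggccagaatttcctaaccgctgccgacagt
Bst2 (chr8:71537503-71537622, minus strand): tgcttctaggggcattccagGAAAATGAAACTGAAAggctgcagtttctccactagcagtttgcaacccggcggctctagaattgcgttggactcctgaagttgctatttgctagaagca
Ifitm2 (chr7:140955992-140956111, minus strand): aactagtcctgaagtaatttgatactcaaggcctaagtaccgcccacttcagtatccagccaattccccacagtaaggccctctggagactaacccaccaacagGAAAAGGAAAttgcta

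Of the 7 windows 4 held the core, against 3.44% of all 32851 windows in the reference table. Rsad2 held 1 match, on the opposite strand at -120 to -111. Bst2 held 2 overlapping matches, at -130 to -121 and -124 to -115, and Ifitm2 held 1 at -46 to -37. Ifitm3 held its 2 matches just past the start, GAAAAGGAAA at +3 to +12 and GAAACCGAAA at +20 to +29. The windows of Cmpk2, Ifitm1 and Ifitm6 held none. For Ifitm1 and Ifitm6 the RefSeq window lay inside the GENCODE gene, so sequence before the GENCODE start was not searched. Among 34 other interferon-stimulated genes with a window, 17 held the core in at least 1 of their windows (50%). Counted per gene in this way, the share was 3.99% of all 27025 genes with a window.

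The library totals ran from 30341823 to 45557804 counts. Dis3l2 stood at 27.9 ± 5.54 CPM (counts scaled to a common library size with TMM factors; SD, n = 3) in shNS and at 13.5 ± 1.46 in shDis3l2 with doxycycline, and at 29.6 and 28.6 CPM without it (1 library each). The difference with doxycycline passed edgeR's test (log2 fold change -1.05, adjusted p = 0.0216), but not without any 1 of the shDis3l2 libraries (edgeR adjusted p 0.0776 to 0.112). It also failed to pass with replicate number as a block in the fit. Within shNS, doxycycline replicate 2 correlated more closely with the library without doxycycline (0.985) than with replicates 1 and 3 (0.939 and 0.945), by r over genes, which do not vary independently. All 10 macrophage markers, such as Csf1r and Lyz2, reached at least 1 CPM, with a summed level of 8710 to 13100 CPM in shNS and 7370 to 10300 in shDis3l2 with doxycycline. Of the 10 markers, edgeR called 2 lower and 0 higher in shDis3l2 with doxycycline (4 lower and 2 higher at an unadjusted p under 0.05; 3 and 1 by DESeq2, 2 and 0 by limma-voom), and 6 lay above zero, with a median log2 fold change of 0.16. The 2 were Mpeg1 and Adgre1, whose log2 fold changes were -1.32 and -2.7 (adjusted p = 0.0203 and 0.0368 by edgeR). Without passing, Cd68 and Lyz2 lay at -0.703 and -0.717, and Csf1r, Itgam and Spi1 at 0.52, 0.585 and 0.56. Adgre1 stood at 120.6, 63.0 and 99.2 CPM in shNS and at 10.7, 7.09 and 25.9 CPM in shDis3l2 with doxycycline, and at 78.8 and 5.01 CPM without it, and the part of these markers in the results was not tested. The 4 epithelial markers had no count in any library. The summed levels of fibroblast, T cell, B cell and endothelial markers stayed at or below 1.21 CPM in every library, and those of dendritic cell markers between 1.55 and 4.01 CPM. Of the latter, Siglech was at 0 in the 3 shNS libraries with doxycycline and at 0.617, 0.876 and 0.502 CPM in shDis3l2. Without doxycycline it was at 0.0275 CPM in shNS and 0.890 CPM in shDis3l2. With doxycycline edgeR called Siglech higher (adjusted p = 0.0122), as did DESeq2 and limma-voom, whereas Zbtb46 lay at -0.98 on the log2 scale (edgeR adjusted p = 0.155).

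With doxycycline, the viperin locus was the part of this group that differed most between the lines. Rsad2 and Cmpk2 rose in shDis3l2, by 8.54-fold and 5.40-fold. Of the 6 genes tested, 2 rose and 0 fell by edgeR's quasi-likelihood test at an adjusted p under 0.05. The same test called 6.14% of all 13752 genes, 2.13% higher and 4.01% lower. Bst2 and Ifitm3 lay higher, and Ifitm2 and Ifitm6 lower, without passing. At an unadjusted p under 0.05 Bst2 also lay higher and Ifitm6 lower, and DESeq2 called both of these. The limma-voom fit called 2 of the genes higher and 0 lower. The 3 libraries of each line did not overlap for 5 of the 7 genes, 3 higher and 2 lower in shDis3l2, which was also true of 27.7% of all genes tested (13.2% higher and 14.6% lower). Ifitm1 was too low to be tested in this comparison. In bulk libraries a change in the share of cells that express a gene and a change in RNA per cell cannot be told apart.

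**Figure D1:**
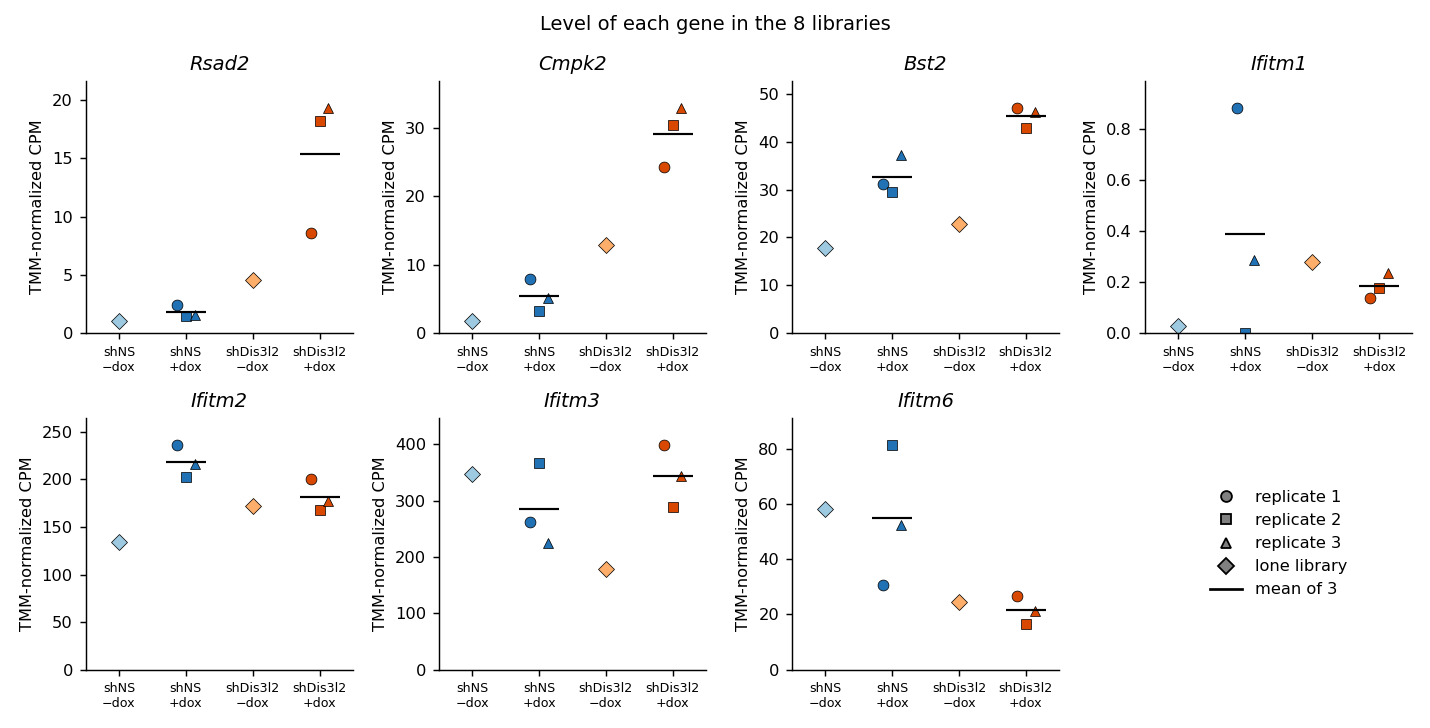
TMM-normalized CPM of each gene (vertical axis, from 0) in the 4 groups (horizontal axis), with 1 marker per library and a bar at the mean of 3. For Rsad2 and Cmpk2 the 3 shDis3l2 libraries with doxycycline sit above all other libraries, whereas Ifitm3 overlaps between the lines.

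Rsad2 (ENSMUSG00000020641, protein coding, chromosome 12, 26442746 to 26456452, minus strand, GRCm38) had 76, 51 and 53 counts in shNS replicates 1, 2 and 3 with doxycycline, or 2.39, 1.49 and 1.525 CPM. In shDis3l2 it had 377, 625 and 654 counts, or 8.62, 18.2 and 19.3 CPM. The groups did not overlap: the lowest shDis3l2 library, replicate 1, was 3.6-fold above the highest shNS library, also a replicate 1. The means were 1.80 ± 0.511 and 15.4 ± 5.89 CPM (SD, n = 3 each), a log2 fold change of 3.09 (SE 0.38, edgeR adjusted p = 0.00633). By exact permutation (two-sided) p was 0.1, below which 3 against 3 libraries cannot go.

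Cmpk2 (ENSMUSG00000020638, chromosome 12, 26469204 to 26479837, plus strand) had 250, 110 and 178 counts in the shNS libraries with doxycycline, or 7.87, 3.22 and 5.12 CPM. The shDis3l2 libraries had 1059, 1040 and 1113 counts, or 24.2, 30.4 and 32.9 CPM. Again no shDis3l2 library reached down to an shNS library, and the gap between the nearest libraries was 3.08-fold. This gave a log2 fold change of 2.43 with an SE of 0.33 (edgeR adjusted p = 0.00951; exact permutation p = 0.1). Both genes were called in each of the 6 fits that left out a library, with log2 fold changes of 2.92 to 3.38 for Rsad2 and 2.17 to 2.83 for Cmpk2 and edgeR adjusted p up to 0.0335 and 0.0451.

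The pair lies head to head, with annotated gene starts 12.8 kb apart. Cmpk2 had more counts than Rsad2 in every library, although their exon lengths are close (4163 and 4335 bases). The ratio of Cmpk2 to Rsad2 counts was 3.29, 2.16 and 3.36 in shNS with doxycycline and 2.81, 1.66 and 1.70 in shDis3l2. These ranges overlap (exact permutation p = 0.2, two-sided, n = 3 each). Without doxycycline the ratio was 1.63 in shNS and 2.84 in shDis3l2. No other gene within 100 kb of the pair was expressed enough to be tested, out of 6 annotated there, 2 with any count.

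Bst2 (ENSMUSG00000046718, chromosome 8, 71534255 to 71537456, minus strand) stood at 31.2, 29.5 and 37.2 CPM in shNS with doxycycline and at 47.0, 42.9 and 46.3 CPM in shDis3l2. The groups did not overlap, with shDis3l2 replicate 2 the nearest to shNS replicate 3. The mean ratio was 1.39, with a log2 fold change of 0.48 (SE 0.13) that missed the threshold (edgeR adjusted p = 0.0839; DESeq2 adjusted p = 0.0361). The adjusted p ran from 0.0573 to 0.24 over the other alternatives.

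Around Bst2, 11 other genes within 100 kb were tested, with log2 fold changes from -2.64 to 0.39. By edgeR 0 rose (0 at an unadjusted p under 0.05, and 0 by DESeq2 or limma-voom) and 1 fell (3 at an unadjusted p under 0.05, 2 by DESeq2 and 1 by limma-voom). That gene was Unc13a, which encodes a factor that primes synaptic vesicles (log2 fold change -2.64, edgeR adjusted p = 0.00551). The other genes lower at an unadjusted p under 0.05 were Slc27a1 at -0.95 and Colgalt1 at -0.44 (edgeR adjusted p = 0.136 and 0.126). Mvb12a, the nearest of the 11 and a subunit of ESCRT-I, had a log2 fold change of 0.20 (SE 0.19). The log2 fold change of Bst2 was above those of all 11.

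**Figure D2:**
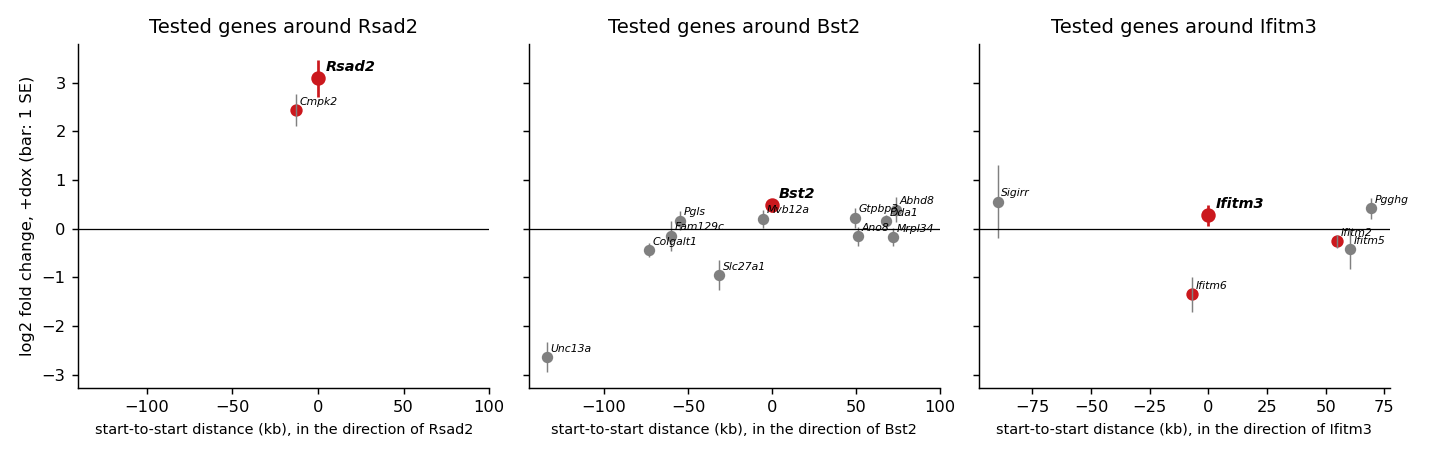
Log2 fold change between the lines with doxycycline (vertical axis, bars of 1 SE) against start-to-start distance in kb (horizontal axis) for the tested genes around Rsad2, Bst2 and Ifitm3. Genes of the antiviral group are red and others grey. Rsad2 and Cmpk2 stand together above 2, while genes near Bst2 and Ifitm3 lie mostly within 1 of zero, with Unc13a at -2.64 and Ifitm6 at -1.35.

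The 4 Ifitm genes lie within 63.1 kb of chromosome 7 and differed in direction. None of those tested passed, and Ifitm1 was not tested. Ifitm3 (ENSMUSG00000025492, 141009586 to 141010770, minus strand), the family member best known for blocking influenza virus in mice, stood at 261, 367 and 226 CPM in shNS with doxycycline. In shDis3l2 it stood at 399, 289 and 344 CPM. The groups overlapped, since shNS replicate 2 lay above 2 of the shDis3l2 libraries. On the log2 scale the difference was 0.28 (SE 0.22, edgeR adjusted p = 0.55, exact permutation p = 0.3). Leaving out 1 library gave 0.13 (without shNS replicate 3) to 0.50 (without shNS replicate 2). None of these fits called it (edgeR adjusted p 0.224 to 0.8).

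Ifitm2 (ENSMUSG00000060591, 140954837 to 140955987, minus strand) stood at 236, 202 and 216 CPM in shNS and at 200, 168 and 177 CPM in shDis3l2 with doxycycline. The groups were adjacent, with shNS replicate 2 and shDis3l2 replicate 1 nearly equal. On the log2 scale shDis3l2 differed from shNS by -0.26 (SE 0.14; edgeR adjusted p = 0.331; exact permutation p = 0.1). Ifitm2 was the one gene of the 7 with fractional expected counts, in 5 of 8 libraries. Of its distinct 100-base stretches 34.9% also occur in transcripts of other genes (Gm45717, Gm8865 and Gm11951), whereas the other 6 genes share none of that length. Adding the counts of the Gm-named genes that share sequence with it, at most 0.0817% of the sum in any library, left the ratio at 0.832. Ifitm3, which shares 50-base stretches with Ifitm2, was not part of that sum.

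Ifitm6 (ENSMUSG00000059108, 141015699 to 141017924, minus strand) was the family member that differed most. It stood at 30.6, 81.4 and 52.5 CPM in shNS and at 26.6, 16.7 and 21.4 CPM in shDis3l2 with doxycycline. The groups did not overlap, but the shNS values were spread widely, with replicate 2 the highest and replicate 1 close to shDis3l2 replicate 1. The fitted log2 difference was -1.35 (SE 0.36; edgeR adjusted p = 0.0825; exact permutation p = 0.1). It missed the threshold in this fit, passed without shNS replicate 1 (log2 fold change -1.61, edgeR adjusted p = 0.0201) and by DESeq2 (adjusted p = 0.00214), and was -0.94 without shNS replicate 2 (edgeR adjusted p = 0.101).

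Ifitm1 (ENSMUSG00000025491, 140967221 to 140969825, plus strand) was close to silent. It had 28, 0 and 10 counts in the shNS libraries with doxycycline and 6, 6 and 8 in shDis3l2. A count of 0 allows up to 3 counts in shNS replicate 2, by counting error only. The 28 counts of shNS replicate 1 were the highest of the 8 libraries, at 0.882 CPM.

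The family total and its make-up were compared next. The 4 genes together amounted to 558 ± 81.7 CPM with doxycycline in shNS, against 548 ± 76.6 in shDis3l2 (SD, n = 3 each; exact permutation p = 0.8), with overlapping libraries. A sum does not depend on how shared reads were split within the family. Ifitm3 exceeded Ifitm6 by 8.53, 4.5 and 4.3 times in shNS and by 15, 17.3 and 16.1 times in shDis3l2, with no overlap (exact permutation p = 0.1, the smallest possible). Without doxycycline this ratio was 5.96 in shNS and 7.32 in shDis3l2, the latter within the range of shNS with doxycycline. Ifitm6 took 5.79, 12.5 and 10.6% of family counts in shNS and 4.24, 3.52 and 3.94% in shDis3l2, and 10.8% and 6.52% without doxycycline. The ratio of Ifitm3 to Ifitm2 was 1.11, 1.81 and 1.04 in shNS and 2, 1.72 and 1.94 in shDis3l2, with overlap (exact permutation p = 0.2), and 2.59 and 1.04 in the untreated libraries. Such ratios within a library involve no scaling and show unequal change, not which gene changed.

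**Figure D3:**
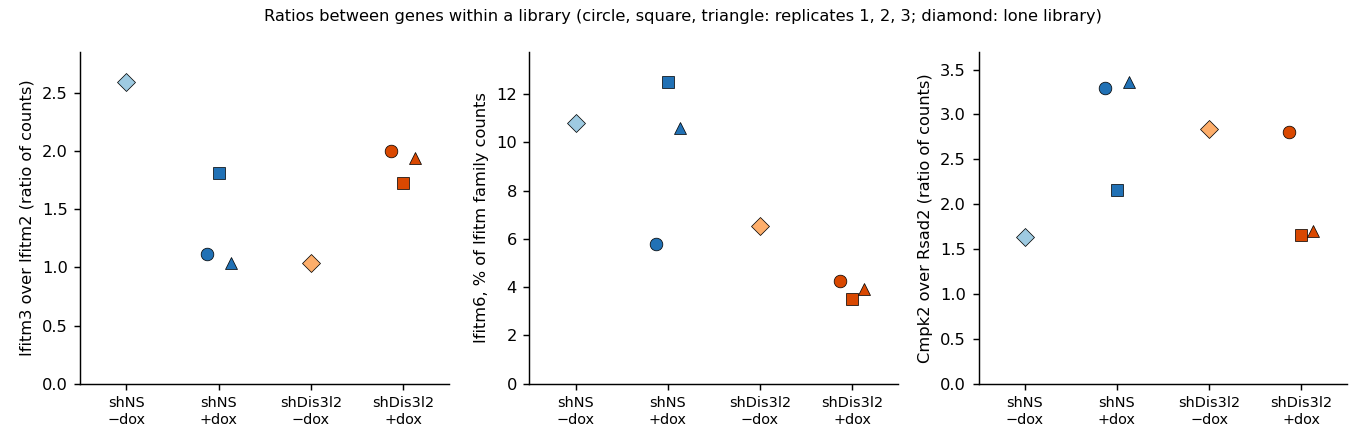
Ratios between genes within each library (vertical axes, from 0) in the 4 groups: Ifitm3 over Ifitm2 counts, Ifitm6 as a percentage of Ifitm family counts, and Cmpk2 over Rsad2 counts. The Ifitm6 share is 3.52 to 4.24% in shDis3l2 with doxycycline and 5.79% or more in the other 5 libraries.

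Levels per exon length set the genes in order. In shNS with doxycycline, Ifitm3 was highest at 419.7 ± 108 CPM per kb, then Ifitm2 at 333 ± 26.0, Ifitm6 at 60.6 ± 28.2, Bst2 at 36.1 ± 4.45, Cmpk2 at 1.30 ± 0.562, Rsad2 at 0.416 ± 0.118 and Ifitm1 at 0.356 ± 0.411 (SD, n = 3). The neighbouring pairs Ifitm3 and Ifitm2, Ifitm6 and Bst2, and Rsad2 and Ifitm1 overlapped over the 3 libraries. In shDis3l2 the order of Ifitm6 and Bst2 was turned, at 23.8 ± 5.46 and 50.3 ± 2.46 CPM per kb. Cmpk2 stood at 7.002 ± 1.07 there, Rsad2 at 3.55 ± 1.36 and Ifitm1 at 0.167 ± 0.0458 CPM per kb, so the viperin pair remained below the membrane-protein genes other than Ifitm1.

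Without doxycycline, with Dis3l2 at 29.6 and 28.6 CPM, the viperin pair also lay apart in the single libraries. Rsad2 had 38 counts in shNS and 178 in shDis3l2, or 1.04 and 4.53 CPM, a ratio of 4.34 (95% exact interval 3.04 to 6.33). Cmpk2 had 62 and 506 counts, or 1.70 and 12.9 CPM, a ratio of 7.56 (5.80 to 10). These intervals cover counting error only, and with 1 library per line there is no replicate check and no test. A log2 ratio of at least 1 was seen upward in 9.29% and downward in 11.4% of 15250 genes.

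Of the membrane-protein genes, Ifitm6 lay furthest apart after the barely detected Ifitm1. It stood at 58.3 CPM in shNS against 24.5 in shDis3l2, giving a ratio of 0.421 (0.389 to 0.454), against 0.394 with doxycycline. Bst2 gave 1.28 (1.16 to 1.42) and Ifitm2 1.28 (1.23 to 1.33), the latter opposite in direction to its difference with doxycycline. Ifitm3 was lower in shDis3l2, 179 against 348 CPM, a ratio of 0.516 (0.501 to 0.531), also opposite to its direction with doxycycline. Ifitm1 had 1 count in shNS and 11 in shDis3l2, a ratio of 10.2 (1.48 to 438).

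The doxycycline effect was then compared within each line, against its lone untreated library, which is assumed to vary like the libraries with doxycycline. Of 15250 genes edgeR called 0 in each of these comparisons (0%). At an unadjusted p under 0.05 there were 646 genes for shNS, 504 for shDis3l2 and 577 for the difference of the effects, and DESeq2 called 74, 64 and 35. The values below are thus fitted differences that did not pass, unless stated. Without shNS replicate 2, edgeR called 544 genes for doxycycline in shNS and 121 for the difference of the effects.

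Bst2, Rsad2 and Cmpk2 lay above the untreated library in all 3 doxycycline libraries of both lines. Ifitm2 joined them in shNS and Ifitm3 in shDis3l2, making 4 of the 7 genes in each line, against 23.8% of all genes in shNS and 29.4% in shDis3l2. Below the untreated library in all 3 lay 0 of the 7 genes in shNS and 1 in shDis3l2, Ifitm1, against 22.8% and 29.5% of all genes. Bst2 was 1.65 to 2.08 times the untreated level in shNS and 1.88 to 2.06 times in shDis3l2. Its fitted log2 changes were 0.87 (SE 0.20) and 0.99 (SE 0.20), with a difference of 0.12 (SE 0.27; edgeR adjusted p = 0.99, 0.804 and 1 in turn). DESeq2 called the rise in shDis3l2 (adjusted p = 0.0112).

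Cmpk2 was 1.89 to 4.62 times the untreated level in shNS, lowest in replicate 2, and 1.88 to 2.56 times in shDis3l2. The log2 changes were 1.66 (SE 0.51) and 1.18 (SE 0.48), with edgeR adjusted p = 0.99 and 1, and their difference was -0.48 (SE 0.64). Without shNS replicate 2 the change in shNS passed, at 1.91 (edgeR adjusted p = 0.0365). Rsad2 was 1.43 to 2.29 times the untreated level in shNS and 1.91 to 4.27 times in shDis3l2. The log2 changes were 0.79 (SE 0.55) and 1.77 (SE 0.56), and their difference of 0.98 (SE 0.74) did not pass (edgeR adjusted p = 1).

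Ifitm3 and Ifitm2 differed in which line they lay above the untreated library. In shDis3l2, Ifitm3 was 1.61 to 2.23 times its untreated level in all 3 libraries, while in shNS it was 0.649 to 1.05 times. The difference of the effects was 1.23 on the log2 scale (SE 0.44, unadjusted p = 0.0258, edgeR adjusted p = 1). Ifitm2 was 1.51 to 1.76 times its untreated level in shNS and 0.975 to 1.16 times in shDis3l2, with a difference of -0.62 (SE 0.27, edgeR adjusted p = 1). Ifitm6 moved in both directions in both lines, between 0.525 and 1.4 times. Ifitm1, which entered these fits, had log2 changes of 3.66 in shNS (SE 2.24) and -0.61 in shDis3l2 (SE 1.55), fitted from the few counts given above (edgeR adjusted p = 0.99 and 1). These effects share the untreated library of each line, so every value within a line carries the error of that 1 library.

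**Figure D4:**
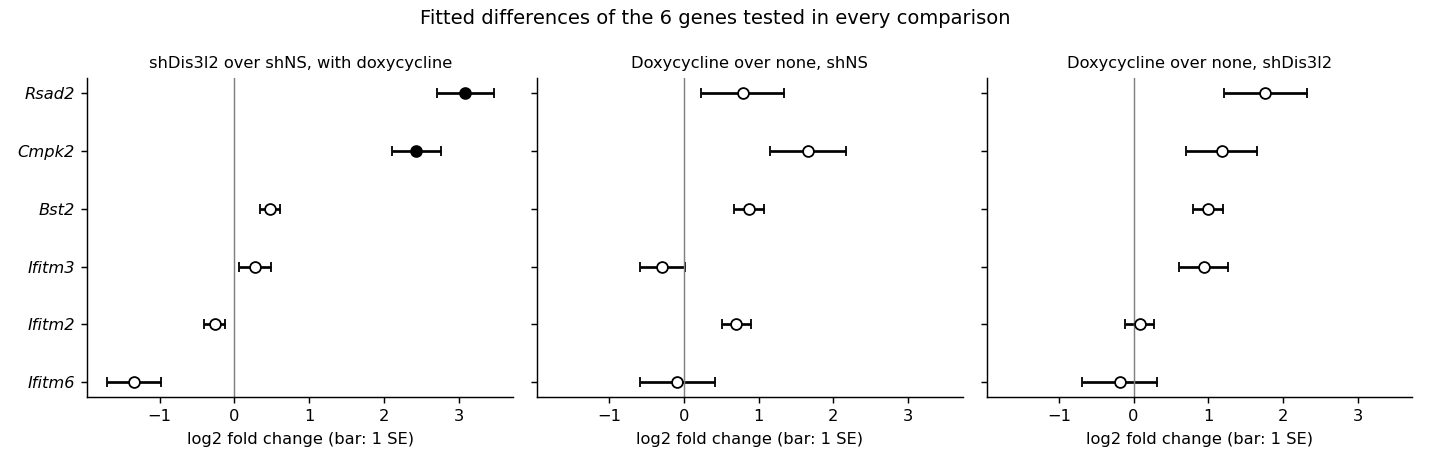
Fitted log2 fold changes (horizontal axis, bars of 1 SE) of the 6 genes for shDis3l2 over shNS with doxycycline, and for doxycycline over none in shNS and in shDis3l2. Filled circles mark an edgeR adjusted p under 0.05, which are Rsad2 and Cmpk2 in the first panel, at 3.09 and 2.43.

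The rest of the interferon response gave the setting for these differences. Of 46 other interferon-stimulated genes, each expressed enough to be tested, 39 rose and 0 fell in shDis3l2 with doxycycline by edgeR (0 fell at an unadjusted p under 0.05 or by DESeq2 or limma-voom), with a median log2 fold change of 1.73, against -0.00231 over all genes. The 6 tested genes of the antiviral group had a median of 0.38. The list was chosen with earlier results of these data known and is no independent evidence of direction. The number that rose was 24 without shNS replicate 3 and 20, 16 and 15 without shDis3l2 replicate 1, 2 or 3. The smallest adjusted p belonged to the T cell attractant Cxcl10, the GTPase Irgm1, the cap-binding RNA sensor Ifit1, the exonuclease Isg20 and the oligoadenylate synthetase-like Oasl2, with log2 fold changes of 6.75, 1.29, 3.95, 2.99 and 3.61 and edgeR adjusted p between 0.00192 and 0.00357.

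Placed among those 46 genes, Rsad2 had 9 above it and Cmpk2 18. Bst2 and Ifitm3 each had 44 above and 2 below, the latter being Ly6e and Stat2, named after their values were seen. Ifitm2 and Ifitm6 lay below all 46. The mean centred log2 level of the 46 genes was -0.25, -1.23 and -0.91 in shNS replicates 1, 2 and 3 with doxycycline and -1.56 without it. It was 1.39, 1.26 and 1.39 in shDis3l2 with doxycycline and -0.08 without it. Rsad2 and Cmpk2 also had their highest shNS value in replicate 1 and their lowest in the untreated library.

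**Figure D5:**
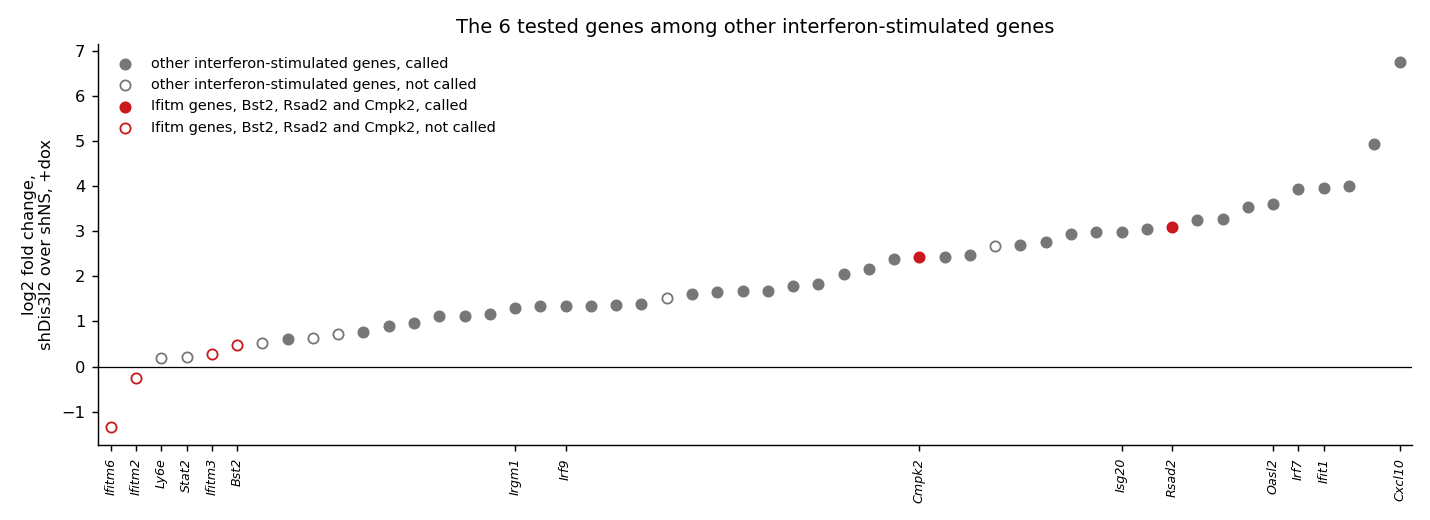
Log2 fold change of shDis3l2 over shNS with doxycycline (vertical axis) for 46 interferon-stimulated genes (grey) and the 6 tested genes of the antiviral group (red), in rising order along the horizontal axis. Filled points passed edgeR's test, and only genes named in the text are labelled. Ifitm6 and Ifitm2 stand at the low end, Ifitm3 and Bst2 near it, and Cmpk2 and Rsad2 in the upper part.

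Across the 8 libraries, Pearson's r on log2 CPM described which genes ran most alike, among 11699 genes with a mean count of at least 50. For Rsad2 these were Irgm2 (0.992), Ifit1 (0.986) and Trim34a (0.983), and for Cmpk2 they were Xaf1 (0.995), Ifit3 (0.994) and Oas2 (0.990). Rsad2 and Cmpk2 correlated at 0.963 with each other. With the mean level of the 46 interferon-stimulated genes, r was 0.978 for Cmpk2, 0.964 for Rsad2, 0.786 for Bst2, 0.172 for Ifitm3, 0.0792 for Ifitm2 and -0.882 for Ifitm6. The points share the split between lines and the untreated libraries, so these values are descriptions.

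Genes for interferon signalling were partly higher in shDis3l2 with doxycycline. Of 20 tested receptors, kinases, factors and adaptors 5 rose and 0 fell by edgeR (0 fell at an unadjusted p under 0.05 or by DESeq2 or limma-voom; median log2 fold change 0.29). Among them were Irf9 (1.35), Irf7 (3.94), the receptor subunit Ifnar2 (0.71) and the adaptor Tmem173, known as STING (0.57), which was named after its value was seen. The calls of these 4 were lost without any 1 of the shDis3l2 libraries, with Irf9 and Irf7 also lost without shNS replicate 3, Irf7 with no low-count filter, Ifnar2 without shNS replicate 2 and Tmem173 without either of these or when scaled by library size alone (edgeR adjusted p up to 0.208). Ifnar2 and Tmem173 also lost their calls with replicate number as a block in the fit. Of the interferon genes listed, Ifnb1 had 3 counts in all 8 libraries, all in shDis3l2, and Ifna4 had none, both named after their values were seen.

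Genes that modify, assist or supply these proteins showed few differences. Of 8 tested genes for the modification and trafficking of Ifitm proteins and tetherin 0 were called by edgeR, DESeq2 or limma-voom, and 1 had an unadjusted p under 0.05: the palmitoyltransferase Zdhhc20, at -0.42 (edgeR adjusted p = 0.224). Of 8 viperin partners, such as the iron-sulfur assembly factor Ciao1, 0 were called by any of these tools, and 1 had an unadjusted p under 0.05, the kinase Irak1 at 0.39 (edgeR adjusted p = 0.167). Of 25 genes for nucleotide supply 0 were called by edgeR or limma-voom. DESeq2 called 2 higher and 3 lower, 5 higher and 3 lower genes had an unadjusted p under 0.05, and the smallest belonged to the mitochondrial kinase Tk2 at -0.62 (edgeR adjusted p = 0.0576). In the dispanin family, to which the Ifitm genes belong, 2 further genes were tested and 0 were called by edgeR (0 at an unadjusted p under 0.05, and 0 by DESeq2 or limma-voom), with Tmem91 at 0.76 (SE 0.52). Among the 8 other tested genes within 100 kb of the Ifitm cluster edgeR, DESeq2 and limma-voom called 0 and an unadjusted p under 0.05 was seen for 0, with log2 fold changes from -0.44 to 0.56.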

How the data were processed

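Total RNA of RAW264.7 cells was sequenced in 8 libraries. The authors deposited expected counts per gene in 1 table of 55450 rows. The submitters' processing notes name cutadapt, STAR 2.7, RSEM and GRCm38 (mm10). Not given in the sources used here are the strand setting, the annotation release and the versions of cutadapt and RSEM. Where counting did not use strand, reads of a gene and of an overlapping antisense gene cannot be told apart.

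All gene IDs matched GENCODE M21, which supplied symbols, coordinates and exon lengths. Expected counts were rounded, which changed 4.68 to 5.24% of values per library. Library totals were 30341823 to 45557804. The lines with doxycycline were compared in edgeR 4.0.16 (R 4.3.3) with TMM scaling, filterByExpr at a minimum count of 10, a robust quasi-likelihood fit and Benjamini-Hochberg adjustment at 0.05 over 13752 genes. Doxycycline effects came from the same model on 4 groups and 15250 genes. The SE is the size of the log2 fold change divided by the square root of F. Untreated libraries were compared by ratio with an exact 95% interval that covers counting error only. Levels are TMM CPM from 8-library factors. Single genes and ratios were tested by two-sided exact permutation of 3 against 3 libraries.

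Alternatives were DESeq2 1.42.0, limma-voom 3.58.1, other scalings, filters (none, or 1 CPM in 3 libraries) and prior counts, all 8 libraries in the fit, a replicate block, and leaving out each doxycycline library. The members and gene lists were chosen with earlier results of these data known. Named genes were Dis3l2, the 7 members, up to 4 of each list by smallest adjusted p (ties kept), the 1 with the smallest p where none was called, tested genes within 100 kb of a member, and the 3 genes most like each called member. The method was tested on simulated counts. The result for 1 gene of a list is not reported here.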

Additional observations from a re-analysis of the deposited data

How the results depend on the processing

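Rsad2 and Cmpk2 were called higher in shDis3l2 with doxycycline in each of the 14 alternatives, with log2 fold changes of 2.92 to 3.38 and 2.17 to 2.83. Of the 7 genes, DESeq2 called 3 higher (Bst2 besides this pair) and 1 lower (Ifitm6). The fit without shNS replicate 1 also called Ifitm6 lower, and leaving out a library gave 0 to 1 lower. Over all genes the count of 845 became 1748 with DESeq2 and 203 to 1157 on leaving out a library, with 464, 203 and 259 without shDis3l2 replicate 1, 2 or 3. For doxycycline in shNS, 0 calls became 2 with no low-count filter, 74 with DESeq2 and 0 to 544 on leaving out a library, with 0 to 1 of the 7 genes higher (Cmpk2). In shDis3l2, DESeq2 called 64 genes, 1 of them Bst2. For the difference of the effects, calls became 2 with no filter, 35 with DESeq2 and 0 to 121 on leaving out a library. The Ifitm6 change in shNS ranged from -0.51 to 0.20 on leaving out a library, above zero without shNS replicate 1, and its difference of effects from -0.39 to 0.32, above zero without shNS replicate 2 and, at 0.0555, without shDis3l2 replicate 2. Scaled by library size alone, the log2 ratios without doxycycline moved to 0.42 for Ifitm2 and -0.89 for Ifitm3. The cause of these changes was not tested. Same-numbered deviations of the 2 lines correlated at -0.128, 0.0264 and -0.000925, and no shNS library correlated best with its own number. With 3 libraries per line these values cannot settle whether replicate numbers pair the libraries, which the labels do not state. With the replicate block 421 genes were called, among them Rsad2 (3.05, edgeR adjusted p = 0.0377) and Cmpk2 (2.51, edgeR adjusted p = 0.0361). With the block, 30 interferon-stimulated genes rose, and Dis3l2, Ifnar2 and Tmem173 lost their calls (edgeR adjusted p = 0.0822, 0.0827 and 0.127). Ifitm1 and the single untreated libraries limit what depth and design can show: Ifitm1 never exceeded 28 counts, and a lone library gives no spread of its own.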

Other observations

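For the 4 tested genes that were not called with doxycycline, the genes that ran most alike across the 8 libraries were looked up after their values were seen. For Ifitm3 they were Psmb8 (Pearson's r = 0.98), an immunoproteasome subunit, Psmb10 (0.968), another such subunit, and Ly6e (0.96), a membrane-anchored antiviral protein. Psmb8 stood at 53.5, 70.9 and 47.7 CPM in shNS and at 87.1, 63.4 and 72 CPM in shDis3l2 with doxycycline, and at 65.6 and 37.8 CPM without it. Like Ifitm3, it had its highest shNS value with doxycycline in replicate 2, its lowest shDis3l2 value with doxycycline in replicate 2, and a lower untreated level in shDis3l2 than in shNS. For Ifitm6 the genes most alike were Ier3 (0.991), Plod1 (0.988) and Kcnk6 (0.986), and for Bst2 they were Stk17b (0.977), Hprt (0.971) and Tarbp2 (0.945). For Ifitm2 they were Tec (0.970), Borcs6 (0.958) and Ndrg1 (0.950). These values describe 8 points that share the same lines and untreated libraries, and carry no test.

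Within the viperin pair, Cmpk2 was the more variable gene in the 3 shNS libraries with doxycycline, and Rsad2 in the 3 shDis3l2 libraries. The coefficient of variation over the 3 doxycycline libraries was 28.3% for Rsad2 and 43.3% for Cmpk2 in shNS, and 38.3% and 15.3% in shDis3l2. The spread of Rsad2 in shDis3l2 came mostly from replicate 1, at 8.62 CPM against 18.2 and 19.3. The difference in variation was not tested, and 3 libraries per line cannot settle it.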
